A study of Mus musculus with 4 samples.

Results

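The genes described here build and handle cholesterol and fatty acids: the enzymes from mevalonate to cholesterol, the proteins that switch these genes on, the enzymes that make, desaturate and lengthen fatty acids, and a few carriers of cholesterol. They were listed by name, 34 in all, and 33 had a row with an exon length among the 28032 genes with one. Hmgcs1 was not analysed here. Low reads kept Scd1 and Fads2 out of the tests, which left 31 members among 11113 tested genes.

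Messenger RNA was sequenced from CD4+Foxp3+ regulatory T cells (Tregs), the T cells that restrain other immune cells, sorted by flow cytometry from C57BL/6 mice 8 weeks old. The mice were wild type (WT) or lacked Csnk2b (Csnk2b-/- in the labels), which encodes the beta subunit that regulates the kinase CK2. Each genotype gave 2 libraries: replicate 1 came from spleen and replicate 2 from tracheal lymph nodes, so there was 1 library for each genotype and tissue. The labels name neither the Cre line or promoter behind the deletion nor whether a library held 1 animal or a pool. RNA extraction and library kits differed between a pair of libraries labelled as samples 1 and 2 and a pair labelled 3 and 4. If these numbers follow the order of listing, the kits split the libraries by tissue, and tissue and kit cannot be told apart.

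Cells make cholesterol from acetyl-CoA by way of mevalonate, farnesyl diphosphate, squalene and lanosterol. The same acetyl-CoA feeds fatty acid synthesis. When sterols are scarce, Scap escorts the SREBP proteins, the products of Srebf1 and Srebf2, out of the endoplasmic reticulum, and the fragments released from them turn on both branches. The Insig proteins hold Scap back when sterols are plentiful. In T cells, lipid synthesis is known to rise with activation and growth, and products of the mevalonate pathway are known to bear on Treg function.

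SREBP binds promoters together with NF-Y, a factor that recognises the letters CCAAT, so these letters were looked for on both strands (ATTGG on the other) in the RefSeq promoters of the members, 250 bases before to 50 after a start on build GRCm38.p6. Of the 33 members, 25 had a promoter in the table. All 11 sterol enzymes with a promoter had a CCAAT match, as did 4 of 5 regulators, 5 of 8 fatty acid genes and 0 of 1 cholesterol carrier. Counted by promoter, since some genes have several, 11 of 14 sterol, 5 of 10 regulator, 5 of 9 fatty acid and 21 of all 34 member promoters held these letters, and so did 37.4% of the 32851 promoters in the table. The letters TCACNCCAC of a sterol response element were in 0 of 34 member promoters and in 1.24% of all promoters. With the last letter left off, a choice made after the Srebf2 sequence was seen, TCACNCCA was in 1 of 34 member promoters, that of Srebf2, and in 4.36% of all promoters. The E-box CACGTG was in 7 of 34 member promoters, of 6 members, and in 7.15% of all promoters. These are matches of letters and not measured sites.

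Windows of 60 bases around the CCAAT match nearest the start show 3 sterol enzymes that were lower in both Csnk2b-deficient libraries than in either WT library (Mvk, Mvd and Cyp51), the sterol enzyme with the largest tissue difference among those past the test (Ebp) and the fatty acid synthase gene (Fasn). They are written 5′ to 3′ on the strand of the gene, with CCAAT or ATTGG in capitals. In Fasn both forms overlap in CCAATTGG, and the first capitals are the end of a match that begins before the window.
Mvk, chr5:114444227-114444286, plus strand: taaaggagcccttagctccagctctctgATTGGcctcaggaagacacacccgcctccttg
Mvd, chr8:122443418-122443477, minus strand: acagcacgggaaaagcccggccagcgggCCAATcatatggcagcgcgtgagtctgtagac
Cyp51, chr5:4104695-4104754, minus strand: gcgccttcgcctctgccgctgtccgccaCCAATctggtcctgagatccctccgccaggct
Ebp, chrX:8193536-8193595, minus strand: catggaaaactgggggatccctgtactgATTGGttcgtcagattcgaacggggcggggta
Fasn, chr11:120824575-120824634, minus strand: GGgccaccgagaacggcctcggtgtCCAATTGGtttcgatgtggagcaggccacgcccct

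Srebf2 is shown over the 250 bases before its start because it had the smallest genotype p of all members. Its capitals mark the TCACNCCA match and, further along, the ATTGG match.
Srebf2, chr15:82147019-82147268, plus strand: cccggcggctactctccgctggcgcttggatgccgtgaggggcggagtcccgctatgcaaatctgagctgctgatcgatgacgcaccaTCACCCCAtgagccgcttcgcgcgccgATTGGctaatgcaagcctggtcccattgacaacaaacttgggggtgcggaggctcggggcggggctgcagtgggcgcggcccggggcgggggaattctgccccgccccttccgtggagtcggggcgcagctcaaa

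Total exon reads were 4737814 to 6750695 per library. Genes with a read numbered 15515 and 14962 in the WT and Csnk2b-deficient spleen libraries. They numbered 12157 in WT lymph node, the fewest, and 14335 in Csnk2b-deficient lymph node. The part of this in low counts of the WT lymph node library was not tested. Csnk2b itself had 649 and 667 reads in the WT libraries and 148 and 283 in the Csnk2b-deficient ones, lower in both. All 7 Treg markers had reads in every library, with Foxp3 at 811 and 570 CPM (exon reads scaled to library size) in WT and 374 and 123 CPM in Csnk2b-deficient Tregs. Only 25.9% of Foxp3 reads were uniquely placed and 3 features overlap the gene, and its genotype change of -1.66 (edgeR adjusted p = 0.0375) was -0.71 on uniquely placed reads (adjusted p = 0.900, with a range from 1.67e-11 to 1 over 12 alternative fits). Of 10 macrophage and monocyte markers, 8 and 5 had a read in the WT and Csnk2b-deficient spleen libraries, 2 in WT lymph node and all 10 in Csnk2b-deficient lymph node. Their summed level was 15.0, 10.7, 46.2 and 318 CPM in that order, and Lyz2 alone took 1291 reads in the Csnk2b-deficient lymph node library against 187 in the WT one. The part of these cells in the values of that library was not tested. B cell markers summed to between 15.6 and 148 CPM, almost all of it Cd79b, dendritic cell markers to 3.17, 7.44, 19.3 and 23.9 CPM, and CD8 and NK cell markers to 21.2, 15.2, 53.8 and 46.0 CPM. Erythroid markers summed to 0.507, 0.346, 41.8 and 3.95 CPM and stromal markers to 23, 14, 0 and 1 reads. Adipocyte markers summed to 6, 1, 0 and 4 reads, and the B cell marker Pax5 and the NK cell marker Ncr1 were at 0 in all 4 libraries. In sorted bulk cells, fewer cells of a type and less RNA per cell cannot be told apart.

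Per library, values follow in the order WT spleen, Csnk2b-deficient spleen, WT lymph node, Csnk2b-deficient lymph node, as exon reads and as CPM scaled by TMM factors. Fold changes are log2, Csnk2b-deficient over WT, from an edgeR quasi-likelihood fit with tissue as the block, ± SE. With 1 library per genotype and tissue, the fit's p-values do not rest on replicate animals. They rest on how far the genotype change differs between the tissues and, in larger part, on variance borrowed from all genes. Ratios within a tissue carry 95% exact binomial intervals that cover counting error only.

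No member passed the genotype test: 0 of 31 at an adjusted p of 0.05, with adjusted p between 0.707 and 0.996. Over all 11113 genes 0.144% were called, 14 higher (0.126%) and 2 lower (0.018%). DESeq2, limma-voom and edgeR without a filter on low counts also called 0 members, against 0.486%, 0.576% and 0.632% of all genes. At an unadjusted p of 0.05 there were 2 members, Srebf2 and Sqle, both lower, where 4.88% of all genes passed. Csnk2b itself did not pass the adjusted threshold in the edgeR fit, so the lack of a call does not show that a gene was unchanged. What follows therefore gives levels and ratios of single libraries. Levels in both Csnk2b-deficient libraries were below both WT libraries for Mvk, Mvd, Sqle, Cyp51 and Acaca, 5 of 31 tested members against 7.08% of all tested genes. No tested member was higher in both, against 7.18% of all tested genes.

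**Figure D1:**
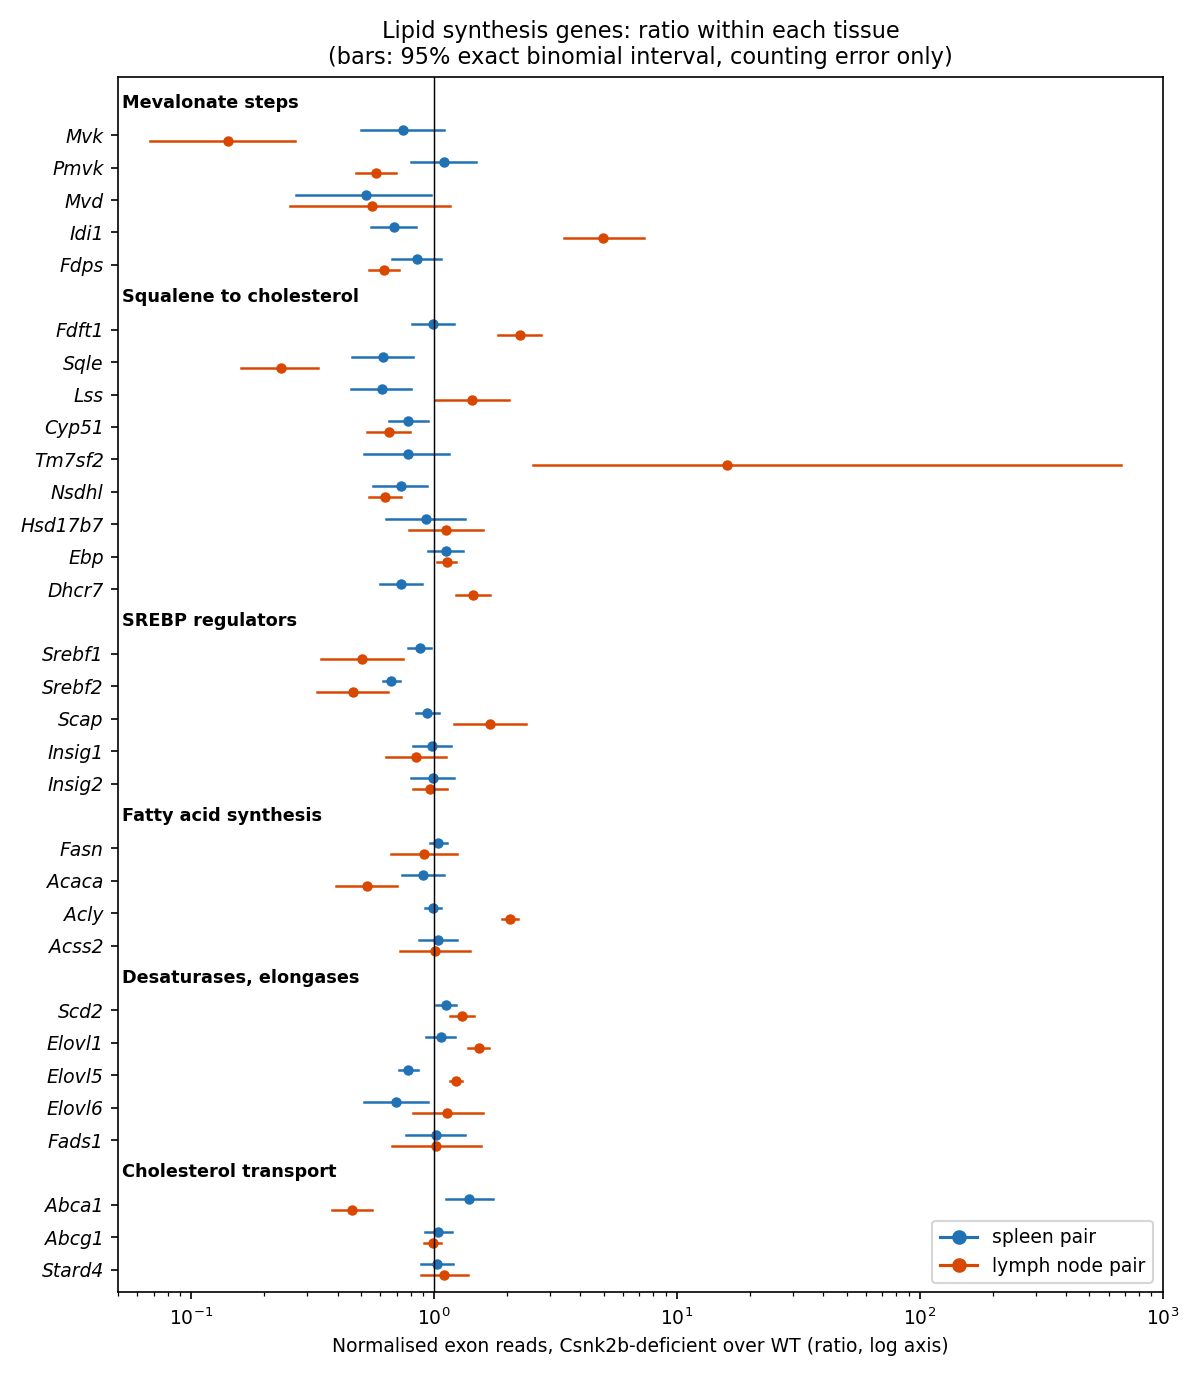
Ratio of normalised exon reads, Csnk2b-deficient over WT (log axis), for the 31 tested members in the spleen pair (blue) and the lymph node pair (orange), with 95% exact binomial bars for counting error only. Most sterol enzymes lie left of 1 in blue, while the orange points scatter to both sides, from 0.141 for Mvk to 16.1 for Tm7sf2.

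The enzymes that turn mevalonate into farnesyl diphosphate were mostly below WT in Csnk2b-deficient Tregs. Of 5 measured, 4 were below WT in spleen and 4 in lymph node, beside 53.5% and 47.9% of all tested genes. The median log2 ratios were -0.41 and -0.78. Their summed level was 85.9, 67.6, 216 and 159 CPM. That is 0.788 times WT in spleen (interval 0.694 to 0.893) and 0.737 times WT in lymph node (0.668 to 0.814). Within these sums Idi1 went from 33.2 to 22.7 CPM in spleen and from 8.55 to 42.3 CPM in lymph node. Only 5.15% of Idi1 reads were uniquely placed.

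Mvk, mevalonate kinase, at mm9 chr5:114894278-114910600, had 77, 42, 70 and 11 reads (9.77, 7.26, 17.1 and 2.41 CPM). Both Csnk2b-deficient libraries lay below both WT libraries, and the lymph node library was lowest. The ratio was 0.744 in spleen (0.498 to 1.10) and 0.141 in lymph node (0.0673 to 0.268), and the joint change was -1.56 ± 0.86. The decarboxylase gene Mvd was low everywhere, with 39, 15, 21 and 13 reads, and a joint change of -0.89 ± 1.11. It too did not overlap between genotypes, at 4.95 and 5.13 CPM in WT against 2.59 and 2.85 CPM.

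Pmvk, phosphomevalonate kinase, had 96, 77, 279 and 179 reads (12.2, 13.3, 68.2 and 39.2 CPM), so it was lower in Csnk2b-deficient lymph node only, at 0.575 times WT (0.474 to 0.697). Fdps, farnesyl diphosphate synthase, had 203, 126, 478 and 330 reads (25.7, 21.8, 117 and 72.3 CPM). It was lower in both pairs, with a joint change of -0.47 ± 0.30, but its level differed more between tissues than between genotypes, and the genotypes overlapped. A share of 32.2% of its reads was uniquely placed.

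Idi1, the isomerase between Mvd and Fdps, went the other way in lymph node. It had 262, 131, 35 and 193 reads (33.2, 22.7, 8.55 and 42.3 CPM), which is 0.682 times WT in spleen (0.549 to 0.844) and 4.95 times WT in lymph node (3.44 to 7.31). Only 5.15% of its reads were uniquely placed, 15, 9, 0 and 8 in the 4 libraries, so its counts depend on how reads with several placements were assigned.

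The enzymes from squalene to cholesterol were lower in the Csnk2b-deficient spleen library in 8 of 9 cases and in lymph node in 3 of 9. Of all tested genes, 53.5% and 47.9% were lower. The median log2 ratio of these enzymes was -0.35 in spleen and 0.17 in lymph node. Their summed levels were 232, 193, 535 and 555 CPM, 0.832 times WT in spleen (0.772 to 0.897) and 1.04 times in lymph node (0.979 to 1.10).

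Sqle, squalene epoxidase, a control point of the sterol branch at mm9 chr15:59146632-59162747, had 157, 71, 150 and 39 reads (19.9, 12.3, 36.7 and 8.55 CPM). Both WT libraries lay above both Csnk2b-deficient ones, and the WT lymph node library was highest. The ratio was 0.617 in spleen (0.459 to 0.821) and 0.233 in lymph node (0.160 to 0.334). The joint change of -1.38 ± 0.52 had an edgeR p of 0.0217 and an adjusted p of 0.890, which ranged from 0.433 to 1 over 12 alternative fits, with a change between -1.79 and -0.91. Sqle was thus lower under every alternative run and called under none.

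Cyp51, the demethylase that acts on lanosterol, had 315, 181, 229 and 166 reads (40.0, 31.3, 56.0 and 36.4 CPM). The genotypes did not overlap, with ratios of 0.784 in spleen (0.649 to 0.944) and 0.650 in lymph node (0.529 to 0.797) and a joint change of -0.49 ± 0.34. Nsdhl, a sterol dehydrogenase that helps remove methyl groups after it, had 180, 96, 433 and 303 reads (22.8, 16.6, 106 and 66.4 CPM). It was lower in both pairs, at 0.727 times WT (0.562 to 0.937) and 0.628 times WT (0.540 to 0.729), while its level was higher in both lymph node libraries. The joint change was -0.57 ± 0.31.

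Fdft1, squalene synthase, is the entry step of this arm. It had 242, 175, 136 and 341 reads (30.7, 30.3, 33.2 and 74.8 CPM), level in 3 libraries and high in Csnk2b-deficient lymph node, where it reached 2.25 times WT (1.84 to 2.76). That library also held 318 CPM of macrophage and monocyte markers against 46.2 CPM in its WT partner. Fdft1 overlaps Ctsb, and 74.9% of its reads were uniquely placed. The part of the markers or of the overlap in the Fdft1 level was not tested. Dhcr7, a reductase that completes cholesterol, had 289, 155, 248 and 398 reads (36.7, 26.8, 60.6 and 87.3 CPM). It was lower than WT in spleen (0.731 times, 0.598 to 0.892) and higher in lymph node (1.44 times, 1.23 to 1.69).

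Ebp, a sterol isomerase, had 331, 271, 874 and 1100 reads (42.0, 46.9, 214 and 241 CPM), which is 1.12 times WT in spleen (0.947 to 1.32) and 1.13 times in lymph node (1.03 to 1.24). Lss, lanosterol synthase, was at 0.608 times WT in spleen (0.456 to 0.804) and 1.43 times in lymph node (1.01 to 2.03), with 40.0% of its reads uniquely placed. The joint change of Lss was -0.11 on all reads and 0.18 on uniquely placed ones. Tm7sf2, a sterol reductase, had 72, 41, 1 and 18 reads, so its lymph node ratio of 16.1 has an interval from 2.55 to 673 and was not resolved at this depth. Hsd17b7, another reductase, had 50 to 77 reads per library and ratios of 0.922 and 1.11 whose intervals include 1.

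**Figure D2:**
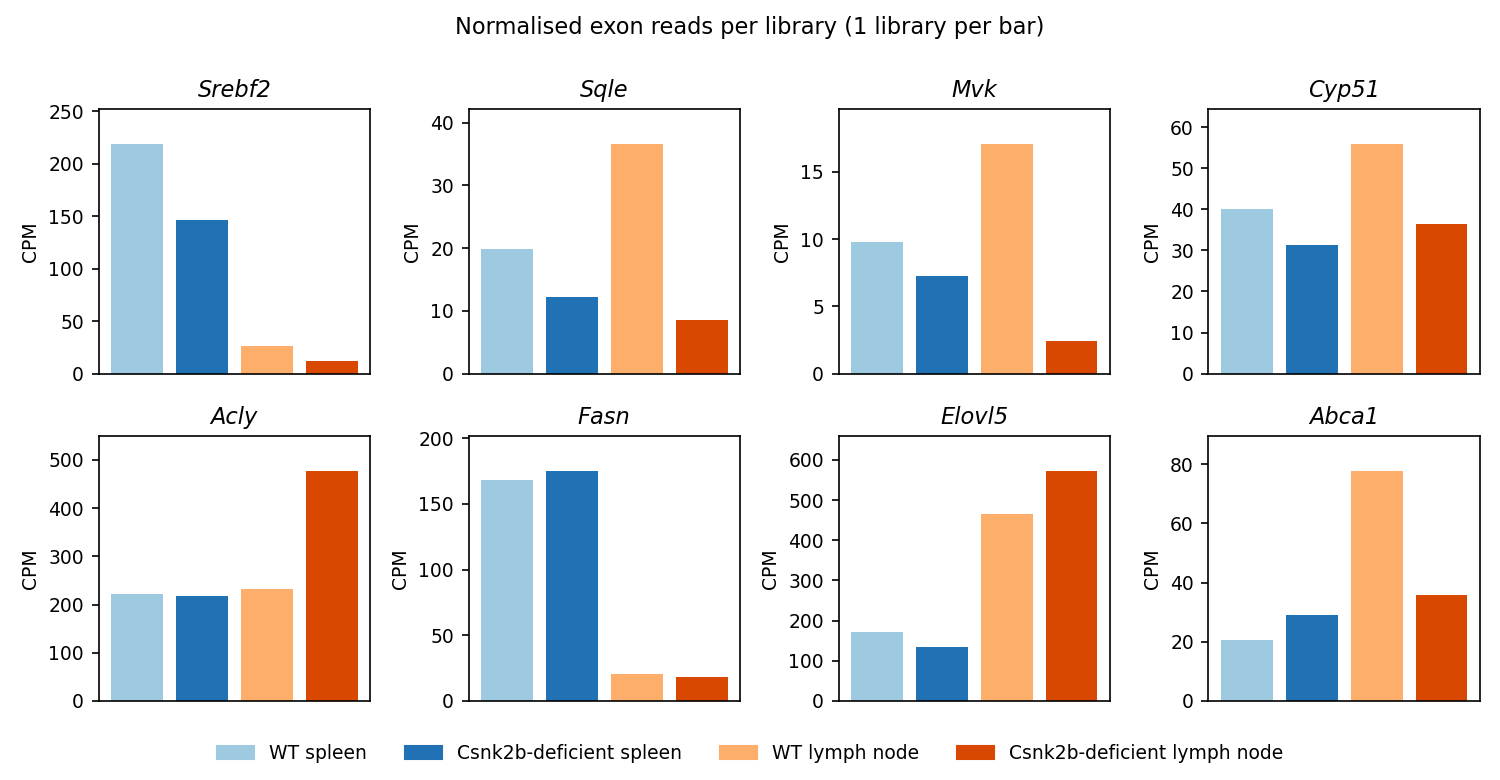
Normalised exon reads (CPM, axis from 0) of 8 members, 1 bar per library in the order WT spleen, Csnk2b-deficient spleen, WT lymph node, Csnk2b-deficient lymph node. Srebf2 stands at 219 and 146 CPM in the spleen bars, Sqle and Mvk have their lowest bar in Csnk2b-deficient lymph node, and Acly and Abca1 differ between genotypes mainly in lymph node.

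The genes that control this program were below WT in the Csnk2b-deficient spleen library in 5 of 5 cases and in lymph node in 4 of 5. The shares of all tested genes were 53.5% and 47.9%. In spleen most of the ratios were small, with a median log2 ratio of -0.10. In lymph node the median was -0.24, but Srebf2 at -1.08, Srebf1 at -0.96 and Scap at 0.75 lay far from it. Summed levels were 491, 397, 155 and 134 CPM, with a ratio of 0.808 in spleen (0.767 to 0.851) and 0.866 in lymph node (0.773 to 0.969), and Srebf2 made up most of the difference in spleen.

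Srebf2, whose product mainly drives the cholesterol genes, lies at mm9 chr15:81977696-82035806. It had 1728, 844, 108 and 56 reads (219, 146, 26.4 and 12.3 CPM). Csnk2b-deficient Tregs were lower within each tissue, and the spleen libraries of both genotypes lay far above both lymph node libraries, so genotypes overlapped. The ratio was 0.666 in spleen (0.613 to 0.724) and 0.465 in lymph node (0.331 to 0.648). The joint change was -0.80 ± 0.26, with an edgeR p of 0.0106, the smallest of the members, and an adjusted p of 0.707. Over 12 alternative fits the adjusted p ran from 0.255 to 1. Fits that dropped a single library could keep no tissue term, and there the change took in the tissue difference and reached 1.62 without WT replicate 1 and 0.27 without Csnk2b-deficient replicate 2.

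Srebf1, whose products drive the fatty acid genes, had 805, 514, 78 and 44 reads (102, 88.9, 19.1 and 9.65 CPM). It too was lower within each tissue, at 0.871 times WT (0.778 to 0.974) and 0.506 times WT (0.341 to 0.741), with a joint change of -0.54 ± 0.33. Scap, the escort, had 828, 568, 55 and 104 reads (105, 98.2, 13.4 and 22.8 CPM), close between the spleen libraries and at 1.70 times WT in lymph node (1.21 to 2.40). The retention genes had the smallest changes of the group. Insig1 had 287, 206, 105 and 99 reads (36.4, 35.6, 25.7 and 21.7 CPM) with a joint change of -0.13 ± 0.37, and Insig2 had 227, 164, 287 and 308 reads (28.8, 28.4, 70.1 and 67.5 CPM) with a joint change of -0.04 ± 0.31.

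Genes of fatty acid synthesis were close to WT in spleen and uneven in lymph node. The 4 genes summed to 458, 460, 303 and 531 CPM, 1.01 times WT in spleen (0.956 to 1.06) and 1.75 times in lymph node (1.64 to 1.88). The lymph node difference came from Acly. This gene, for ATP citrate lyase, which makes the acetyl-CoA that both branches use, lies at mm9 chr11:100337667-100389314 and had 1742, 1262, 948 and 2176 reads (221, 218, 232 and 477 CPM). It was level in 3 libraries and high in Csnk2b-deficient lymph node, at 2.06 times WT there (1.91 to 2.22) and 0.988 times in spleen (0.918 to 1.06). The joint change was 0.51 ± 0.26 with an edgeR p of 0.0711. This is the library with 318 CPM of macrophage and monocyte markers against 46.2 CPM in its WT partner, and their part in the Acly level was not tested.

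Fasn, fatty acid synthase, had 1325, 1012, 83 and 84 reads (168, 175, 20.3 and 18.4 CPM). The spleen libraries of both genotypes lay far above the lymph node ones, and the ratios of 1.04 (0.959 to 1.13) and 0.908 (0.662 to 1.24) have intervals that include 1. Acaca, acetyl-CoA carboxylase, which supplies malonyl-CoA, had 253, 167, 134 and 79 reads (32.1, 28.9, 32.8 and 17.3 CPM). Both Csnk2b-deficient libraries were below both WT libraries, by a ratio of 0.900 in spleen (0.736 to 1.10) and 0.529 in lymph node (0.395 to 0.703), and the joint change was -0.52 ± 0.40. Acss2, which makes acetyl-CoA from acetate, had 289, 219, 73 and 82 reads (36.7, 37.9, 17.8 and 18.0 CPM) and a joint change of 0.03 ± 0.38.

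The desaturases and elongases were above WT in Csnk2b-deficient lymph node in 5 of 5 tested genes and in spleen in 3 of 5. Among all 11113 tested genes, 5789 were above WT in lymph node and 5158 in spleen. The desaturases and elongases summed to 383, 359, 777 and 1007 CPM, 0.937 times WT in spleen (0.886 to 0.991) and 1.30 times in lymph node (1.24 to 1.36). Scd2, a desaturase that makes monounsaturated fatty acids, had 927, 762, 545 and 792 reads (118, 132, 133 and 174 CPM). It was the member above WT beyond counting error in both pairs, by 1.12 (1.02 to 1.24) and 1.30 (1.17 to 1.46), although the WT lymph node library matched the Csnk2b-deficient spleen one. The joint change was 0.27 ± 0.22.

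Elovl5, an elongase of polyunsaturated fatty acids, had 1355, 778, 1907 and 2611 reads (172, 135, 466 and 572 CPM). It was below WT in spleen, at 0.783 (0.716 to 0.856), and above WT in lymph node, at 1.23 (1.16 to 1.30). Elovl1, which lengthens very long chains, had 480, 374, 615 and 1044 reads (60.9, 64.7, 150.3 and 229 CPM) and was at 1.52 times WT in lymph node (1.38 to 1.68). Elovl6, which lengthens palmitate, had 133, 68, 68 and 86 reads (16.9, 11.8, 16.6 and 18.9 CPM), at 0.697 times WT in spleen (0.513 to 0.941) and 1.13 times in lymph node (0.816 to 1.58).

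Fads1, a desaturase of polyunsaturated fatty acids, had ratios of 1.01 (0.767 to 1.34) and 1.02 (0.667 to 1.55). Scd1 had 1, 1, 0 and 8 reads and Fads2 had 0 in all 4 libraries. A count of 0 allows up to 3 reads, which is 0.381 to 0.733 CPM depending on the library.

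Of the cholesterol carriers, Abca1, the pump that loads cholesterol onto lipid-poor apolipoprotein, had 163, 167, 318 and 163 reads (20.7, 28.9, 77.7 and 35.7 CPM). It was above WT in spleen, at 1.40 (1.12 to 1.74), and below WT in lymph node, at 0.460 (0.378 to 0.557), so the joint change of -0.33 ± 0.43 stands for neither tissue. Abcg1, a pump that passes cholesterol to lipoproteins, had 529, 404, 1244 and 1367 reads (67.1, 69.9, 304 and 299.7 CPM) with ratios of 1.04 (0.913 to 1.19) and 0.986 (0.912 to 1.07). Stard4, a sterol carrier of the cytosol, had 400, 302, 149 and 183 reads (50.7, 52.2, 36.4 and 40.1 CPM) and a joint change of 0.09 ± 0.32.

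**Figure D3:**
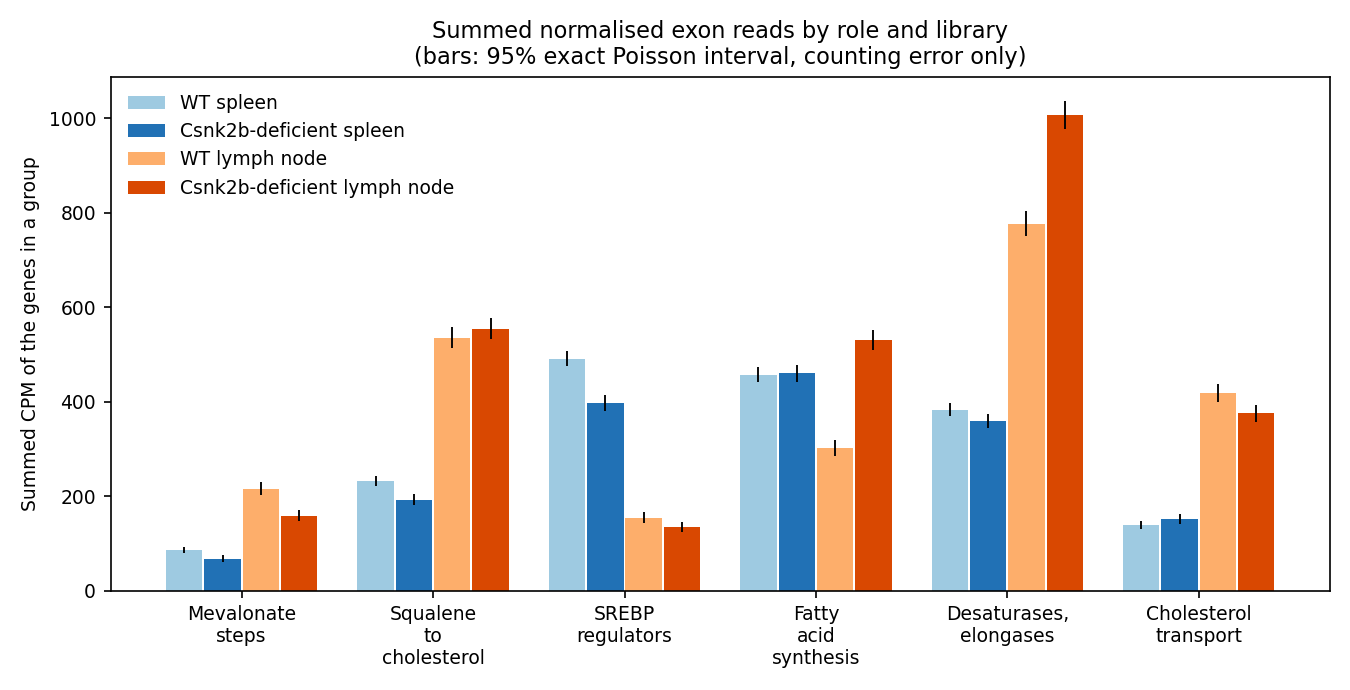
Summed normalised exon reads (CPM, axis from 0) of each role group in the 4 libraries, with 95% exact Poisson bars for counting error only. In spleen the sterol groups and the regulators have a shorter Csnk2b-deficient bar than WT bar, while the fatty acid groups have their tallest bar in Csnk2b-deficient lymph node.

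Set against each other, the sterol branch (14 genes from Mvk to Dhcr7) had a lower median ratio than the fatty acid branch (9 tested genes) in both tissues. Neither branch as a whole was tested. In spleen, 12 of 14 sterol genes and 4 of 9 fatty acid genes were below WT, beside 53.5% of all tested genes. The median log2 ratio there was -0.38 for the sterol branch, 0.02 for the fatty acid branch and -0.02 for all tested genes. In lymph node, 7 of 14 sterol genes and 2 of 9 fatty acid genes were below WT, beside 47.9% of all tested genes, with medians of -0.23, 0.18 and 0.03.

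Summed over its genes, the sterol branch was at 317, 260, 751 and 714 CPM, or 0.820 times WT in spleen (0.769 to 0.875) and 0.951 times in lymph node (0.905 to 0.999). The fatty acid branch was at 841, 819, 1080 and 1537 CPM, or 0.974 times WT in spleen (0.938 to 1.01) and 1.42 times in lymph node (1.37 to 1.48). Within this lymph node sum, Acly alone was at 232 CPM in WT and 477 CPM in Csnk2b-deficient Tregs. The desaturases and elongases, which do not include Acly, were at 1.30 times WT there (1.24 to 1.36). Macrophage and monocyte markers summed to 46.2 and 318 CPM in these 2 libraries, and their part in the branch sums was not tested. The joint medians were -0.23 for the sterol branch and 0.02 for the fatty acid branch, against 0.01 for all tested genes. The branches differed by -0.26. Without WT replicate 2, which also removes the tissue term, that difference turned to 0.35.

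The uneven lymph node pair is also seen in counting error. Sterol genes beyond counting error were 7 lower and 0 higher in spleen, and 6 lower and 6 higher in lymph node. Of all tested genes, 15.8% were lower and 13.2% higher in spleen, and 30.5% lower and 32.8% higher in lymph node. Over all 31 tested members, 11 or 35.5% were lower in both pairs (29.2% of all tested genes), 6 or 19.4% were higher in both (27.7%) and 14 or 45.2% went opposite ways (43.1%). Idi1, Lss, Dhcr7, Elovl5 and Abca1 went opposite ways beyond counting error, 5 of 31 members against 5.59% of all tested genes. For Idi1 and Lss, 5.15% and 40.0% of the reads were uniquely placed, and the intervals were not computed on those reads alone. Sqle, Cyp51, Nsdhl, Srebf1 and Srebf2 were lower beyond counting error in both pairs, 5 of 31 members against 7.56% of all tested genes.

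Between tissues, 14 of 31 members passed the edgeR test, beside 45.4% of all tested genes. Of these, 9 were higher in lymph node, where 23.3% of all genes were, and 5 were lower, where 22.2% were. Both lymph node libraries were above both spleen libraries for 14 members, beside 35.9% of all genes, and below them for 9, beside 40.7%. The median of all tested genes was itself shifted by -0.17 on the log2 scale, and the kits may coincide with this comparison.

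Among the sterol enzymes, Ebp rose by 2.35 ± 0.23 (adjusted p = 1.71e-05), Nsdhl by 2.11 ± 0.31, Pmvk by 2.03 ± 0.40, Fdps by 1.96 ± 0.30 and Dhcr7 by 1.21 ± 0.34 (adjusted p = 0.0134). No sterol enzyme passed as lower in lymph node. The elongases Elovl5 and Elovl1 rose by 1.76 ± 0.22 and 1.56 ± 0.24, the pump Abcg1 by 2.14 ± 0.22 and Insig2 by 1.27 ± 0.31. Regulators and fatty acid synthase fell instead: Srebf2 changed by -3.30 ± 0.28 (adjusted p = 6.84e-06), Srebf1 by -2.79 ± 0.34, Scap by -2.52 ± 0.33 and Fasn by -3.15 ± 0.27 (adjusted p = 7.02e-06). Acss2 passed narrowly at -1.06 ± 0.38 (adjusted p = 0.0426) and did not pass with DESeq2 (0.120), with median-of-ratios factors (0.0533) or with uniquely placed reads (0.0844), where its change was -1.04, -1.04 and -0.91.

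Members that were higher in lymph node had shorter exon models and a lower median GC content than those that were lower. The 9 higher members had a median exon length of 2853 bases and 52.5% GC, and the 5 lower ones 5634 bases and 57.9% GC. Their GC ranges overlapped, at 44.8% to 57.0% in the higher and 52.4% to 59.1% in the lower members. The median GC of all tested genes with a value was 49.9%, below both medians. Across all genes with a value, the tissue change followed GC with a Spearman correlation of -0.39 (9430 genes) and exon length with -0.28 (11113 genes), as a description over genes that share the same 4 libraries. The third of genes with the highest GC had a median tissue change of -1.19, and the third with the lowest GC 0.28. The part of base composition in the tissue change of the members was not tested.

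**Figure D4:**
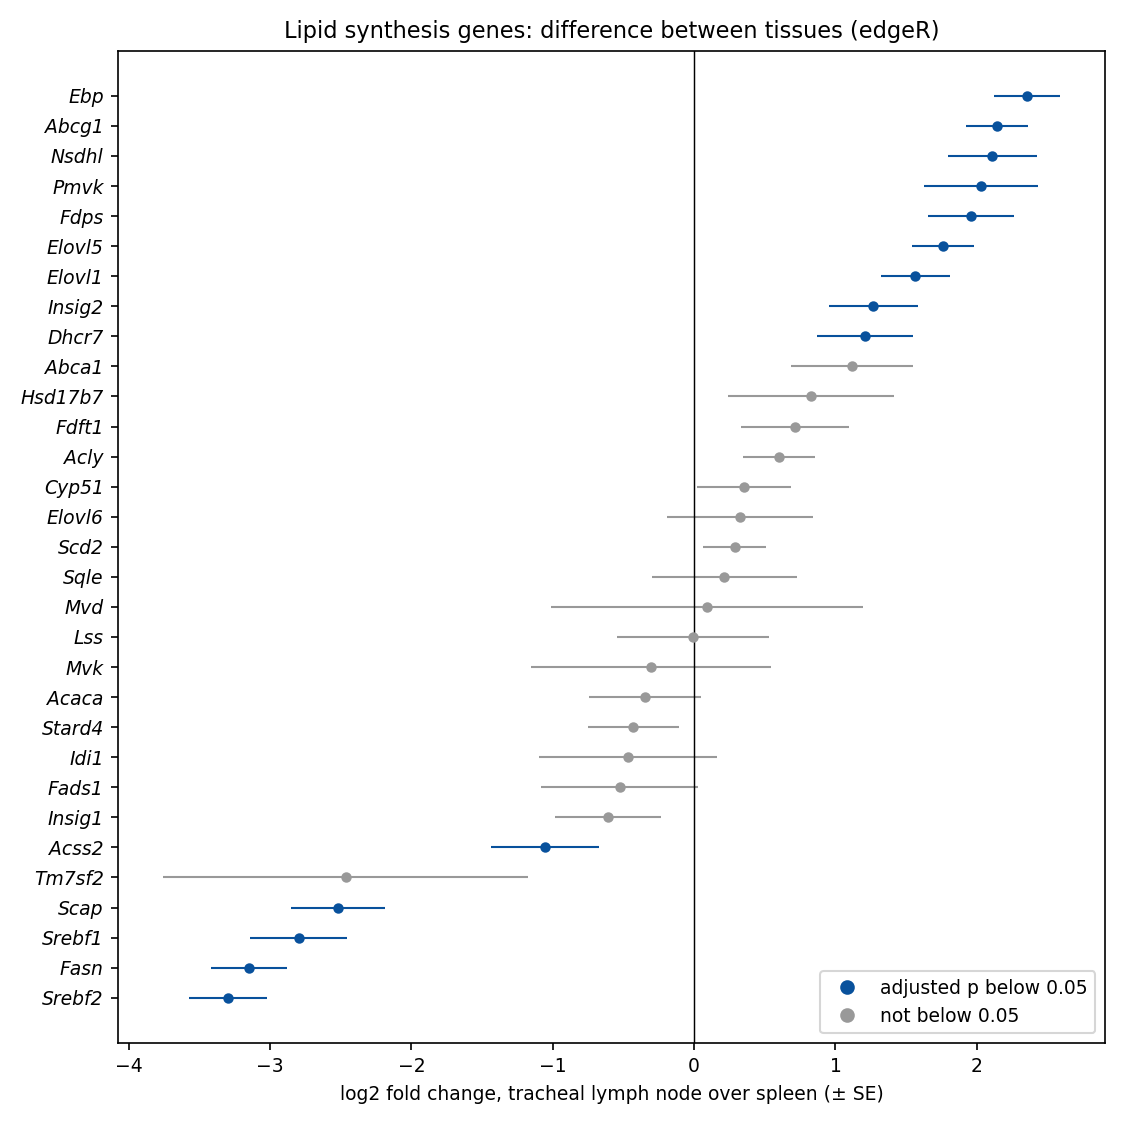
Log2 fold change of lymph node over spleen (± SE, edgeR, 4 libraries) for the 31 tested members, blue where the adjusted p is below 0.05. Ebp at 2.35 and Srebf2 at -3.30 mark the ends. The blue points on the right include 5 sterol enzymes, and those on the left are Srebf1, Srebf2, Scap, Fasn and Acss2.

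Levels can be compared between genes only per length, here as RPKM, the CPM of a gene divided by its exon length in kilobases. The mean over the 4 libraries was 95.5 RPKM for Elovl5, 58.8 for Ebp, 54.4 for Acly, 48.0 for Fdps, 46.3 for Elovl1 and 45.5 for Abcg1, and the ranges of all these neighbours overlapped across libraries. Elovl5 ran from 38.2 to 163 RPKM and Ebp from 18.2 to 104 RPKM. Scd2 was the most even of the strong members, with 21.6, 24.2, 24.4 and 31.8 RPKM. At the low end, Lss averaged 1.55, Tm7sf2 1.46 and Scd1 0.106 RPKM.

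**Figure D5:**
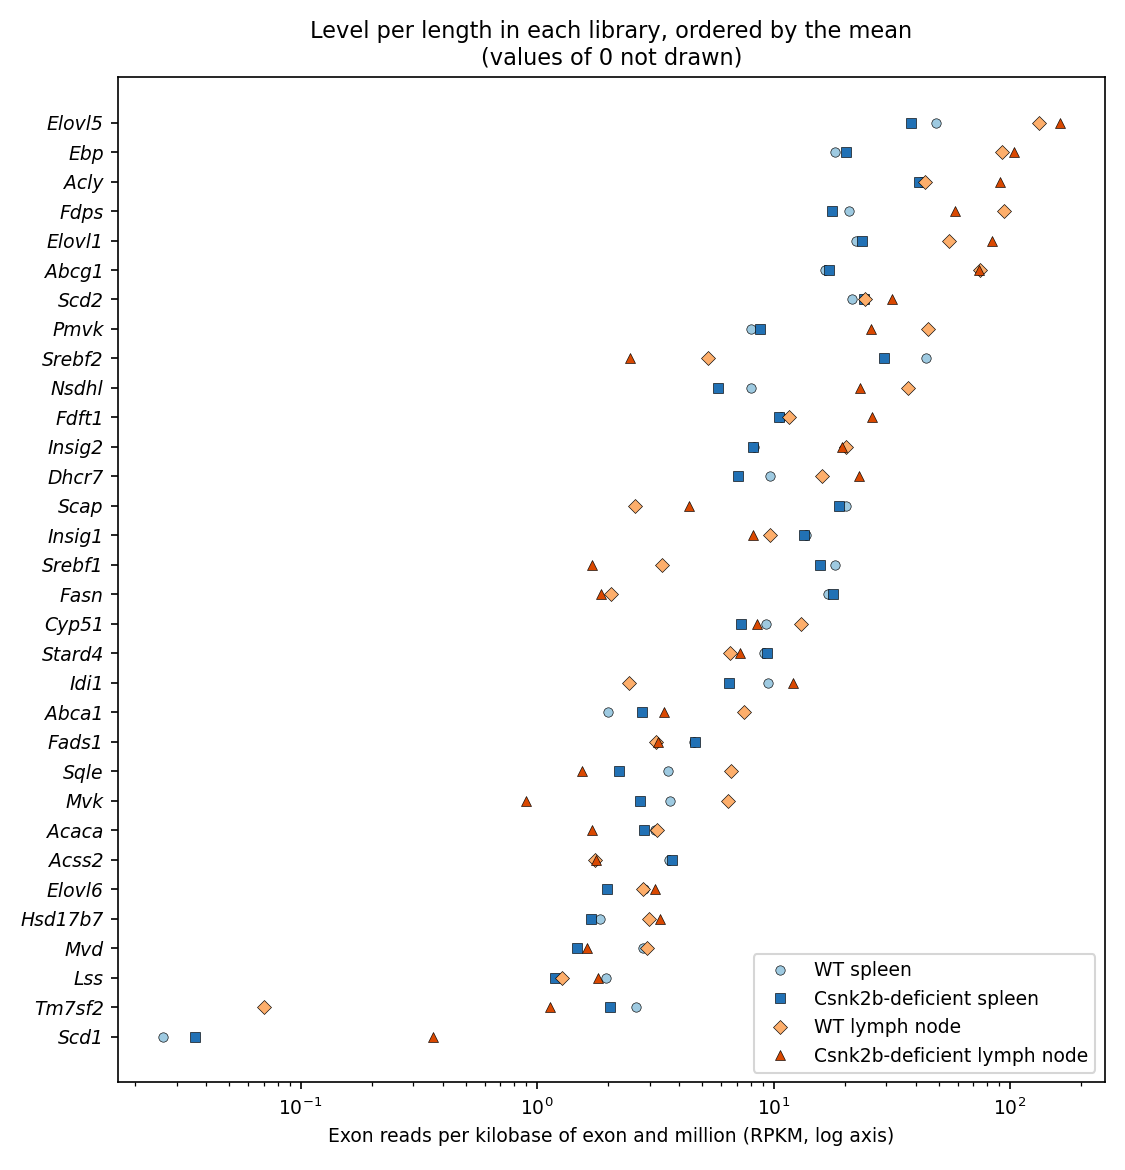
Level per length (RPKM, log axis) of 32 members in each library, ordered by the mean of the 4 libraries, with values of 0 and the undetected Fads2 not drawn. The points of Ebp, Srebf2 and Fasn lie far apart between the tissues, while Scd2 stays between 21.6 and 31.8.

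Other genes of the same pathways, 53 with a row, gave 0 genotype calls among 41 tested, beside 0.144% of all tested genes. At an unadjusted edgeR p of 0.05 there were 0 of 41, beside 4.88% of all tested genes. Soat1, which esterifies cholesterol for storage, had 388, 303, 106 and 383 reads (49.2, 52.4, 25.9 and 84.0 CPM). Both Csnk2b-deficient libraries lay above both WT libraries, by 1.07 in spleen (0.913 to 1.24) and 3.24 in lymph node (2.61 to 4.06). The joint change of Soat1 was 0.87 ± 0.40 with an edgeR p of 0.0512. Macrophage and monocyte markers summed to 318 CPM in the Csnk2b-deficient lymph node library against 46.2 CPM in WT. Their part in the Soat1 level was not tested. Scarb1, a receptor that exchanges cholesterol with HDL, had 94, 45, 41 and 25 reads (11.9, 7.78, 10.02 and 5.48 CPM) and was lower in both Csnk2b-deficient libraries, with a joint change of -0.74 ± 0.73. Lrp8, a lipoprotein receptor, had a joint change of 1.31 ± 0.85.

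In the rest of sterol and isoprenoid synthesis, Ggps1, which makes geranylgeranyl diphosphate, had a joint change of 0.41 ± 0.28, Dhdds, of dolichol synthesis, -0.34 ± 0.40 and Lbr, a sterol reductase of the nuclear envelope, 0.07 ± 0.19. Among regulators, Mylip, a ubiquitin ligase that limits lipoprotein uptake, had a joint change of -0.74 ± 0.39, the SREBP protease gene Mbtps2 0.90 ± 0.45 and the LXR gene Nr1h2 -0.46 ± 0.30. Mbtps2 overlaps Yy2, 64.3% of its reads were uniquely placed (8 of 45 in WT lymph node), and its change on those reads was 1.71.

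Further fatty acid genes were mixed: Tecr, a reductase of chain elongation, had a joint change of -0.41 ± 0.20 and Ptplad1, a dehydratase of the same cycle, 0.50 ± 0.24. Acsl1, which activates fatty acids, had a joint change of 1.57 ± 0.74 with 105, 104, 9 and 79 reads. The part of macrophages and monocytes in its Csnk2b-deficient lymph node level was not tested. Fatty acid oxidation, the opposite pathway, was above WT in 9 of 10 tested genes in spleen and 7 of 10 in lymph node, with median log2 ratios of 0.19 and 0.05. Of all 11113 tested genes, 5158 and 5789 were above WT, with medians of -0.02 and 0.03. Cpt1a, which admits fatty acids to mitochondria, had 761, 950, 659 and 747 reads (96.5, 164, 161 and 164 CPM). The carrier Slc25a20 had a joint change of 0.55 ± 0.32 and Etfdh, of electron transfer, 0.49 ± 0.29. By tissue, 14 of these 41 genes passed as higher in lymph node and 3 as lower, beside 23.3% and 22.2% of all tested genes.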

How the data were processed

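The submitters' processing notes name CASAVA 1.8.2 and build mm9. The aligner, the annotation and whether strand was used were not given in the sources used here. Deposited tables of the authors, 1 per library, hold read counts per gene, per the file headers. Total exon reads were used, after 9551 of 37583 listed features without an exon length were left out. The authors' RPKM column was not used. Overlapping genes cannot be told apart without strand: Fdft1 overlaps Ctsb, and Acss2 overlaps Ggt7 and Gss.

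Genes were filtered with filterByExpr by genotype and tested in edgeR 4.0.16 (R 4.3.3) with TMM factors and robust quasi-likelihood fits on tissue plus genotype, over 11113 genes, with Benjamini-Hochberg adjustment at 0.05. The fit left 1 residual degree of freedom (median prior degrees of freedom 10.1, common biological coefficient of variation 30.0%). SE is the log2 change over the square root of F. Log2 ratios within a tissue use a prior count of 2. The labels give the tissue for each replicate number, which pairs the libraries. Libraries with the same number deviated together from their genotype means (correlation 0.783). With 2 libraries per genotype, this value only restates that the genotypes shared the difference between tissues, and it does not test the pairing.

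Alternatives were DESeq2 1.42.0, limma-voom (limma 3.58.1), median-of-ratios and upper-quartile scaling, no filter, a filter at 5 CPM, uniquely placed reads, no block, and single libraries or pairs left out. Only the edgeR genotype fit was run on simulated data, with planted changes equal in both tissues and less spread between libraries than in these data. That run does not show how the fit performs at the spread seen here. The members, the role lists and the other pathway lists were chosen with earlier results of these data known. Reads and CPM are given for members past the threshold in either comparison and for the 4 of smallest genotype p in each role list. Among the other pathway genes, the 3 of smallest p in each list are named. A few genes of these lists are not reported here and are in no count of them. Mvd, Lss, Tm7sf2, Hsd17b7, Fads1, Scd1 and Fads2 are named to account for every member.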

Additional observations from a re-analysis of the deposited data

Results flagged for a closer look

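In 5 members the Csnk2b-deficient library was below WT in one tissue and above it in the other, each beyond counting error, where 5.59% of all tested genes were. With 1 library per genotype and tissue, the difference between tissues was not tested for any of them. The lymph node log2 ratio minus the spleen log2 ratio was 2.804 for Idi1, 1.203 for Lss, 0.969 for Dhcr7 and 0.6482 for Elovl5, all below WT in spleen and above WT in lymph node. It was -1.589 for Abca1, which went the other way. Of the reads of Idi1 and Lss, 5.15% and 40.0% were uniquely placed. Uniquely placed reads numbered 15, 9, 0 and 8 for Idi1 and 52, 33, 26 and 43 for Lss. The comparison with counting error was not repeated on those reads, where the Lss joint change was 0.18 instead of -0.11. Macrophage and monocyte markers summed to 318 CPM in the Csnk2b-deficient lymph node library and 46.2 CPM in the WT one, and their part in these differences was not tested. The WT lymph node library had reads in 12157 genes and the Csnk2b-deficient one in 14335, and the part of this was not tested either.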

How the results depend on the processing

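No member was called by genotype under any alternative run. The count of members called higher in lymph node was 9 to 11 and the count called lower 4 or 5. The numbers pair the libraries by tissue, and without the replicate block the difference between branch medians was -0.34, Abcg1 was at -0.0057, Elovl5 at 0.15 and Fasn at 0.038. The sterol median was -0.11 with the 5 CPM filter, -0.35 with limma-voom and -0.35 with uniquely placed reads, and the branch difference was -0.13, -0.37 and -0.35. With limma-voom Elovl5 was at 0.011 and Fasn at 0.026.

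With a single library or a pair left out, the sterol median ran from -0.83 to 0.23, the fatty acid median from -0.11 to 0.22, the median of all members from -0.46 to 0.01 and the branch difference from -0.85 to 0.35. Fits without a single library drop the tissue term and so mix tissue with genotype. Of the 26 members named by the rule, 21 turned direction in at least 1 of them, none of these a call. Of the other 5 tested members, Lss (-0.41 to 0.26), Tm7sf2 (-0.70 to 4.39), Hsd17b7 (-0.46 to 0.47) and Fads1 (-0.28 to 0.34) also took both directions over the 12 alternative fits. Over all fits with a library or a pair left out, the change among the sterol enzymes ran from -1.54 to 1.14 for Pmvk, -0.55 to 2.26 for Idi1, -1.66 to 0.90 for Fdps, -0.041 to 1.22 for Fdft1, -1.90 to 0.89 for Nsdhl, -1.40 to 1.81 for Ebp and -0.82 to 0.84 for Dhcr7. Among the regulators it ran from -2.67 to 1.40 for Srebf1, -3.35 to 1.62 for Srebf2, -1.40 to 2.20 for Scap, -0.53 to 0.23 for Insig1 and -0.76 to 0.76 for Insig2. Among the fatty acid genes it ran from -2.38 to 2.29 for Fasn, -0.017 to 1.07 for Acly, -0.62 to 0.67 for Acss2, -0.66 to 1.30 for Elovl1, -1.20 to 1.07 for Elovl5 and -0.51 to 0.18 for Elovl6. Among the carriers it ran from -1.24 to 0.67 for Abca1, -1.36 to 1.49 for Abcg1 and -0.13 to 0.37 for Stard4.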
